A study of Mus musculus with 6 samples.

Results

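Glycolysis and hypoxia genes were followed as a set of 36 mouse genes that cover glucose and lactate transport, the enzymes from hexokinase to lactate dehydrogenase, the bifunctional enzymes that tune phosphofructokinase, and the hypoxia-inducible factor (Hif) pathway. Members were matched by Ensembl gene ID to the listed symbols in the GENCODE M21 annotation, and 35 of the 36 were among the 24938 genes of each library. Ppp1r3c, which encodes a glycogen-targeting subunit of protein phosphatase, is not analysed here. RNA was sequenced from NIH3T3 cells, an immortalised line of mouse embryonic fibroblasts. The 3 overexpression libraries came from cells made to express F-CircAE, described by the labels as a fusion circular RNA related to AML1-ETO, and the 3 control libraries from cells labelled wild type. The level of the circular RNA itself is not analysed here. How the circular RNA was expressed, whether the cells were a clone or a pool, whether the wild type cells carried an empty vector, and the oxygen and glucose supply are not stated by the labels. Nor do they say whether replicates were cultured separately, so the p-values speak only to the spread among these 6 libraries, and that spread may be technical.

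Glycolysis splits glucose into pyruvate in the cytosol and yields ATP without oxygen, and lactate dehydrogenase regenerates the NAD+ that the pathway consumes. Hif1a protein is hydroxylated by the prolyl hydroxylases Egln1 and Egln3 when oxygen is present, bound by Vhl and degraded. In low oxygen it accumulates, pairs with Arnt and activates genes that carry the hypoxia response element, among them many glycolytic enzymes. Proliferating fibroblasts run much of their glucose through to lactate even with oxygen present.

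Recovered whole reads numbered 16969915, 21843880 and 18696612 in the overexpression libraries and 19976928, 20936607 and 19002060 in the control libraries. All 8 fibroblast markers had a mean above 1 FPKM (fragments scaled to gene length and by a factor per library). Their sums were 2112 to 2547 FPKM in overexpression and 2298 to 2619 FPKM in control libraries. Thy1 was low among them, with a mean of 2.22 FPKM and 0.873 FPKM in control replicate 3. Of the markers of other cell types, Cdh1 (epithelial, mean 2.58 FPKM) and Cd68 (blood, mean 5.21 FPKM) were above 1 FPKM and no endothelial marker was. The summed epithelial markers reached 2.95 to 3.31 FPKM in overexpression and 2.73 to 3.73 FPKM in control libraries. Blood markers summed to 4.75 to 6.39 FPKM in overexpression and 4.36 to 6.07 FPKM in control libraries. Endothelial markers summed to 0.719 to 1.06 FPKM in overexpression and 0.585 to 1.08 FPKM in control libraries. No listed marker was at 0 in every library. Control replicates 1 and 2 were closer to each other (median absolute log2 difference 0.05) than any of the other 14 library pairs (0.09 to 0.16).

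No member passed the test. With limma on log2(FPKM + 1) and Benjamini-Hochberg adjustment over 12222 tested genes, 0 of the 30 tested members and 0 of all tested genes (0.0%) had an adjusted p below 0.05. At an unadjusted p below 0.05, limma gave Tpi1 and Pkm higher and Ero1l and Vegfa lower in overexpression, which is 4 of 30 members beside 5.17% of all tested genes (2.86% higher and 2.31% lower). A count model on the recovered reads, limma's voom, also called 0 genes. It tested 14431 genes under a filter of its own, and 747 of these had an unadjusted voom p below 0.05. Among the alternatives run, members were called only when limma gave each library a weight estimated from its spread (array weights): 8 members then passed, beside 18.3% of all tested genes. Of these Pfkl, Tpi1, Gapdh and Pkm were higher (11.1% of all tested genes) and Eno2, Vegfa, Ero1l and Car9 lower (7.28%), while weights with control replicates 1 and 2 averaged left 0 members called. Log2 fold changes, all overexpression minus control, ran between -0.39 and 0.25 over the members. On the log2(FPKM + 1) scale, the 95% interval lay inside a 2-fold change in either direction for all 30 tested members. That was so for 96.6% of all tested genes. The interval lay inside a 1.5-fold change for 27 members, beside 89.1% of all tested genes, the exceptions being Vegfa, Ndrg1 and Car9. This scale understates folds of low genes such as Car9, so these bounds do not hold for folds of FPKM itself. In RNA from whole cultures, fewer cells expressing a gene and less of its RNA per cell cannot be told apart.

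Most glycolytic enzymes had estimates above 0, and the 5 tested members grouped by role as Hif targets had estimates below 0. Of the 16 tested glycolytic enzymes, 15 had an estimate above 0 and the median log2 fold change was 0.15. All 5 tested members grouped by role as Hif targets (Vegfa, Bnip3, Ndrg1, Ero1l and Car9) had an estimate below 0, with a median of -0.30. Among them, Bnip3 (-0.02) and Ndrg1 (-0.10) changed sign when some single libraries were left out. Without overexpression replicate 1, 4 of these 5 targets lay below 0 (median -0.205), and likewise 4 without control replicate 3 (median -0.27). The group of 5 leaves out Hif targets placed under other roles. Among those named as such below, Ldha (0.25), Hk2 (0.07) and Pfkfb3 (0.03) lay above 0. Pfkfb4 (-0.02), Egln3 (-0.02) and Eno2 (-0.065) lay below 0. Of 28 tested Hif targets outside the set, described further below, 16 lay above 0 (median 0.02). The median over all tested genes was 0.01, with 53.2% of estimates above 0. In 10 of the 30 members the groups did not overlap, beside 11.5% of all tested genes. In 8 of these every overexpression library stood above every control library (6.81% of all tested genes), namely Hk1, Pfkl, Tpi1, Gapdh, Pgam1, Pkm, Ldha and Ldhb. In Vegfa and Ero1l every overexpression library stood below every control library (4.69% of all tested genes). Abundant genes as a class also leaned upward: of 452 tested genes with a mean above 100 FPKM, 81.9% had an estimate above 0, their median was 0.10, and 17.9% had all overexpression libraries on top. The 8 members at that level, all glycolytic enzymes, had a median of 0.18, and 5 of them had all overexpression libraries on top. Without overexpression replicate 1 these medians were 0.10 for the 8 members and 0.08 for the 452 genes. Without control replicate 3 they were 0.22 and 0.12, and rescaled to total reads 0.15 and 0.07. The part of this lean in the enzymes' values was not tested.

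**Figure D1:**
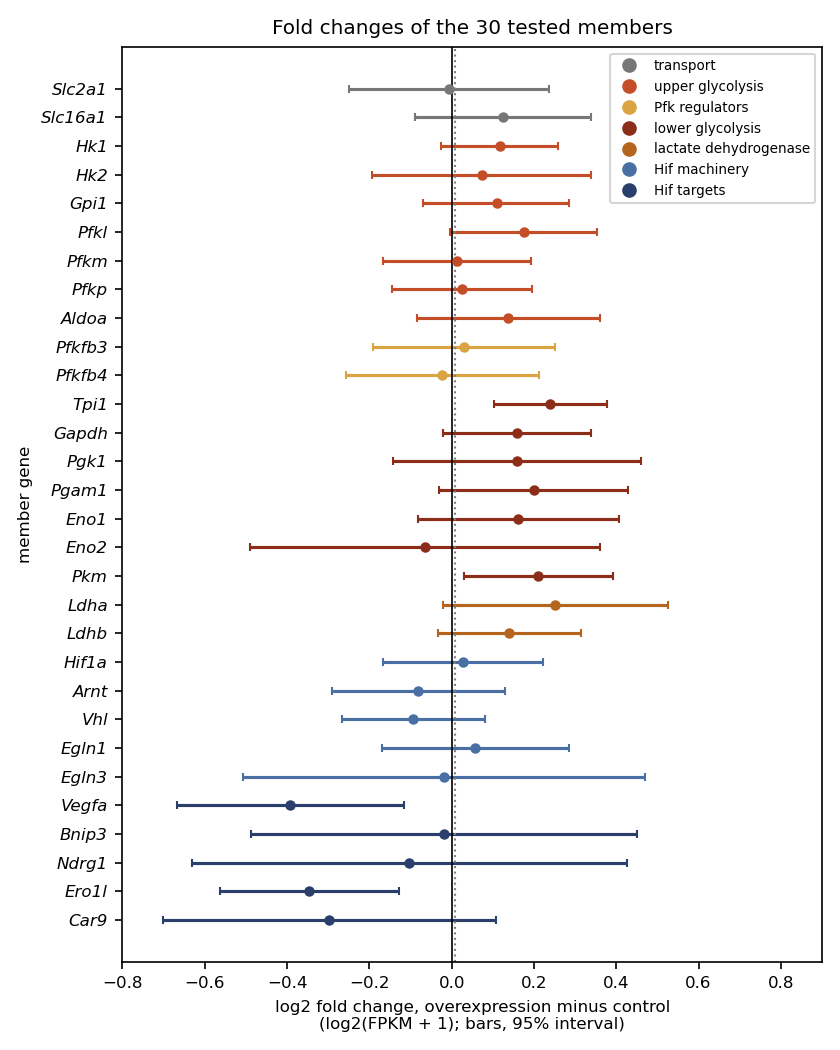
Log2 fold change (overexpression minus control, on the log2(FPKM + 1) scale) of the 30 tested members, ordered by role; points are limma estimates and bars their 95% intervals. Most glycolytic enzymes sit right of 0 and the tested members grouped by role as Hif targets left of it. No member reached an adjusted p of 0.05.

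Promoter windows were read for the members from RefSeq (build GRCm38.p6, 250 bases before to 50 after each gene's RefSeq start), and 32 of the 35 listed members matched, Ero1l under its current symbol Ero1a. Slc2a3, Epas1 and Ndrg1 did not match. The core of the hypoxia response element was searched as ACGTG and GCGTG on both strands, with CACGTG counted once per strand. ACGTG was present in 18 of 32 windows (56.2%), beside 19.6% of all 27025 promoters, and GCGTG in 16 of 32, beside 32.5%. Members' windows held a median of 20.5 CpG, beside 7.0 over all promoters, and both motifs contain CpG. The windows of 5 members, chosen after their values were seen, are shown so that Ldha and Tpi1, both above the controls, can be set beside Vegfa and Ero1l, both below them, and Bnip3, which varied among the controls. They lie at chr7:46845554-46845853 (plus strand, Ldha), chr6:124814109-124814408 (minus strand, Tpi1), chr17:46032328-46032627 (minus strand, Vegfa), chr14:45318523-45318822 (minus strand, Ero1l) and chr7:138909457-138909756 (minus strand, Bnip3). Each is written 5′ to 3′ on the gene's strand, with matches of either motif in capitals.
Ldha: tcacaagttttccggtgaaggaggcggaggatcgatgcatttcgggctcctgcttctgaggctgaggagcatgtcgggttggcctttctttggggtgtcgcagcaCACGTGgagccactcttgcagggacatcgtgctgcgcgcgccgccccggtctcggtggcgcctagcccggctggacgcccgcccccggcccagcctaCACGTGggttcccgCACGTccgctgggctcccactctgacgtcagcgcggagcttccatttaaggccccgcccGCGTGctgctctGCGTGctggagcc
Tpi1: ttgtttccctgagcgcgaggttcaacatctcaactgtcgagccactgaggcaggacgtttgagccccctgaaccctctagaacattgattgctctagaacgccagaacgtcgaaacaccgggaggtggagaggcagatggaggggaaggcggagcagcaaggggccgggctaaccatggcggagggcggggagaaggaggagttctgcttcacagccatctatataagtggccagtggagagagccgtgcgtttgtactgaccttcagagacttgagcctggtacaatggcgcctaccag
Vegfa: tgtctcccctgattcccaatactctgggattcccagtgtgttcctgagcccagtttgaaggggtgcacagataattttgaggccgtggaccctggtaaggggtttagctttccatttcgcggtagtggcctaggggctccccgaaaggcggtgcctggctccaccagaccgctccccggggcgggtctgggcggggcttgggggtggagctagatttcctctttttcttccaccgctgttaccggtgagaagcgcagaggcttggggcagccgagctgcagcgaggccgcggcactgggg
Ero1l: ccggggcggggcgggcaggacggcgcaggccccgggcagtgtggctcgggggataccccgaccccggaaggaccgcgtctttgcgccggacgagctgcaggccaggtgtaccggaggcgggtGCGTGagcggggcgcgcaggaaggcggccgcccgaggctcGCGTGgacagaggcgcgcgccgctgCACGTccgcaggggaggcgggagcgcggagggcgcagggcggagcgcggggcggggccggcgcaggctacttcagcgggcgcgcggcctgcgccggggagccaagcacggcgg
Bnip3: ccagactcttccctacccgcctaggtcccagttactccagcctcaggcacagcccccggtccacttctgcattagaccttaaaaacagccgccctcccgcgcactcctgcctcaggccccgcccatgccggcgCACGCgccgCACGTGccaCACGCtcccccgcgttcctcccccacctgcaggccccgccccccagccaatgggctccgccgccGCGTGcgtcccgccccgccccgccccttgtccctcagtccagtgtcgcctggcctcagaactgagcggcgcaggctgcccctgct
Ldha held 5 ACGTG matches and 2 GCGTG matches, Bnip3 2 and 3, and Ero1l 1 and 2. Tpi1 and Vegfa held none in these windows, nor did Pkm, Hk1, Gpi1, Aldoa, Eno2 and Vhl. Windows with matches thus occurred on both sides of 0, and so did windows without.

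Transporters set the entry of glucose and the exit of lactate. Slc2a1, the main glucose transporter of cultured fibroblasts (ENSMUSG00000028645, mm10 chromosome 4, 119108711 to 119137983), had 31.3, 25.2 and 25.0 FPKM in overexpression libraries, against 28.1, 28.6 and 24.8 FPKM in control libraries. The groups overlapped almost fully, at 27.1 ± 3.57 FPKM in overexpression and 27.2 ± 2.07 FPKM in control (SD, n = 3 each). Its log2 fold change was -0.01 (SE 0.10, limma adjusted p = 0.996, 95% interval -0.25 to 0.24). Slc16a1, the lactate and pyruvate carrier Mct1, lay between 24.2 and 30.3 FPKM in overexpression and between 23.8 and 26.2 FPKM in control. The other carriers of the set, Slc2a3 and Slc16a3, were near silent. Slc2a3, a high-affinity glucose transporter, drew 4, 4 and 2 reads in overexpression libraries and 3, 1 and 2 reads in control libraries. Slc16a3, the lactate exporter Mct4 and a known Hif target, drew 25, 34 and 29 reads in overexpression libraries and 26, 26 and 42 reads in control libraries. Both stayed under the filter of 1 FPKM and were not tested. Outside the set, Slc2a8 and Slc2a10 of the glucose transporter family had means of 4.78 and 4.36 FPKM.

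In upper glycolysis, from hexokinase to aldolase, all 7 tested enzymes had an estimate above 0, with a median of 0.11, and 2 of them did not overlap between groups (11.5% of all tested genes). Without overexpression replicate 1, 5 of the 7 lay above 0 with a median of 0.04, and rescaled to total reads 5 of 7 with a median of 0.08. Hexokinase traps glucose by phosphorylation. Hk2, the Hif-inducible isoform (ENSMUSG00000000628, chromosome 6, 82725025 to 82774454), had 10.8, 8.55 and 7.66 FPKM in overexpression libraries, against 8.15, 8.43 and 8.69 FPKM in control libraries. Overexpression replicate 1 was the highest library and replicate 3 the lowest, so the groups overlapped, with a log2 fold change of 0.07 (SE 0.11, limma adjusted p = 0.900). Hk1, the constitutive isoform, lay between 20.9 and 22.3 FPKM in overexpression and between 18.7 and 20.7 FPKM in control, with no overlap and a log2 fold change of 0.12. Gpi1, which isomerises glucose 6-phosphate, lay between 59.6 and 64.2 FPKM in overexpression and between 55.0 and 63.3 FPKM in control.

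Phosphofructokinase commits sugar to glycolysis. Pfkl, its liver-type subunit (ENSMUSG00000020277, chromosome 10, 77986947 to 78010083), had 48.7, 48.0 and 49.6 FPKM in overexpression libraries, against 40.1, 41.8 and 47.6 FPKM in control libraries. All 3 overexpression libraries stood above the controls, though control replicate 3 lay just under the lowest of them, and the means were 48.7 ± 0.804 FPKM in overexpression and 43.2 ± 3.96 FPKM in control (SD, n = 3 each). The log2 fold change was 0.175 (SE 0.08, limma adjusted p = 0.842). The muscle-type subunit Pfkm lay between 32.1 and 34.7 FPKM in overexpression and between 29.6 and 34.5 FPKM in control. The platelet-type subunit Pfkp lay between 9.83 and 11.3 FPKM in overexpression and between 9.69 and 10.9 FPKM in control, and for both subunits the groups overlapped. Aldoa, the aldolase that cleaves fructose bisphosphate, had 181, 142 and 154 FPKM in overexpression libraries, against 142, 142 and 147 FPKM in control libraries. Only overexpression replicates 1 and 3 stood above the controls there. Its isoform Aldoc drew 8, 12 and 15 reads in overexpression libraries and 13, 9 and 5 reads in control libraries and was not tested.

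Pfkfb3 and Pfkfb4 make and break down fructose 2,6-bisphosphate, the activator of phosphofructokinase, and both are known Hif targets. Pfkfb3 lay between 1.79 and 2.28 FPKM in overexpression and between 1.96 and 2.04 FPKM in control. Pfkfb4 was the more abundant of the pair, between 4.91 and 5.59 FPKM in overexpression and between 4.62 and 6.12 FPKM in control. Their log2 fold changes were 0.03 and -0.02, and the groups overlapped for both.

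Lower glycolysis, from triose phosphate to pyruvate, held the most abundant members, and 6 of its 7 tested enzymes had an estimate above 0, with a median of 0.16, or 0.09 without overexpression replicate 1. Tpi1, which interconverts the triose phosphates (ENSMUSG00000023456, chromosome 6, 124810586 to 124814296), had 255, 238 and 244 FPKM in overexpression libraries, against 207.5, 208 and 208 FPKM in control libraries. The controls were nearly identical and each overexpression library stood clear of them, with means of 246 ± 8.58 FPKM in overexpression and 208 ± 0.265 FPKM in control (SD, n = 3 each). The log2 fold change of 0.24 (SE 0.06, 95% interval 0.10 to 0.38) did not pass over all genes, with a limma adjusted p of 0.842, and Tpi1 ranked 50 by p among all tested genes. Without overexpression replicate 1 the Tpi1 estimate was 0.21.

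Pkm, pyruvate kinase (ENSMUSG00000032294, chromosome 9, 59656368 to 59679375), was the most abundant member. It had 1296, 1148 and 1117 FPKM in overexpression libraries, against 999.97, 1009.9 and 1063 FPKM in control libraries. The groups did not overlap, and means were 1187 ± 95.5 FPKM in overexpression and 1024 ± 34.0 FPKM in control (SD, n = 3 each). Its log2 fold change was 0.21 (SE 0.08, limma adjusted p = 0.842), and 0.145 without overexpression replicate 1. Gene-level values do not separate the Pkm splice forms M1 and M2.

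Ldha, the lactate dehydrogenase subunit that favours lactate and a textbook Hif target (ENSMUSG00000063229, chromosome 7, 46841475 to 46855627), had 396, 304 and 299 FPKM in overexpression libraries, against 270.2, 271 and 290.2 FPKM in control libraries. Every overexpression library was above the controls, but replicate 1 stood far above the others of its group. Means were 333 ± 54.5 FPKM in overexpression and 277 ± 11.3 FPKM in control (SD, n = 3 each). Its promoter window, shown above, held the most motif matches of the set. The log2 fold change was 0.25 (SE 0.115, limma adjusted p = 0.842), the largest positive one among the members, and 0.12 without that library. Ldhb, the subunit that favours pyruvate, lay between 22.7 and 23.6 FPKM in overexpression and between 18.99 and 22.7 FPKM in control. Its log2 fold change was 0.14, or 0.07 without control replicate 3. Its lowest overexpression library and its highest control library were all but level. Its level also depends on how reads from a near-identical copy, described below, were assigned.

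Gapdh, which oxidises glyceraldehyde 3-phosphate (ENSMUSG00000057666, chromosome 6, 125161715 to 125166467), had 479, 428 and 423 FPKM in overexpression libraries, against 385, 385 and 421 FPKM in control libraries. The groups were separated only by the narrow gap between overexpression replicate 3 and control replicate 3. Its log2 fold change was 0.16 (SE 0.08, limma adjusted p = 0.842), and 0.10 without overexpression replicate 1. Pgk1, the first ATP-yielding enzyme (ENSMUSG00000062070, chromosome X, 106187100 to 106203699), had 509, 381 and 399.5 FPKM in overexpression libraries, against 361, 361 and 427 FPKM in control libraries. Control replicate 3 stood above the lower pair of overexpression libraries, and the log2 fold change was 0.16 (SE 0.13, limma adjusted p = 0.850), or 0.03 without overexpression replicate 1. Pgam1, phosphoglycerate mutase (ENSMUSG00000011752, chromosome 19, 41911923 to 41918660), had 149, 118 and 120.4 FPKM in overexpression libraries, against 110.4, 114 and 111 FPKM in control libraries. The groups did not overlap, with a log2 fold change of 0.20 (SE 0.10, limma adjusted p = 0.842), or 0.09 without overexpression replicate 1.

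Enolase makes phosphoenolpyruvate. Eno1, the ubiquitous isoform, had 251, 204 and 193 FPKM in overexpression libraries, against 191, 188 and 196 FPKM in control libraries. Overexpression replicate 1 stood well above the other libraries, and the log2 fold change of 0.16 became 0.05 without it. Eno2, the neuronal isoform and a known Hif target, had 5.23, 4.31 and 5.09 FPKM in overexpression libraries, against 6.08, 6.13 and 3.56 FPKM in control libraries. It was the only tested glycolytic enzyme with an estimate below 0 (log2 fold change -0.065), and control replicate 3 was its lowest library while the other controls were its highest.

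**Figure D2:**
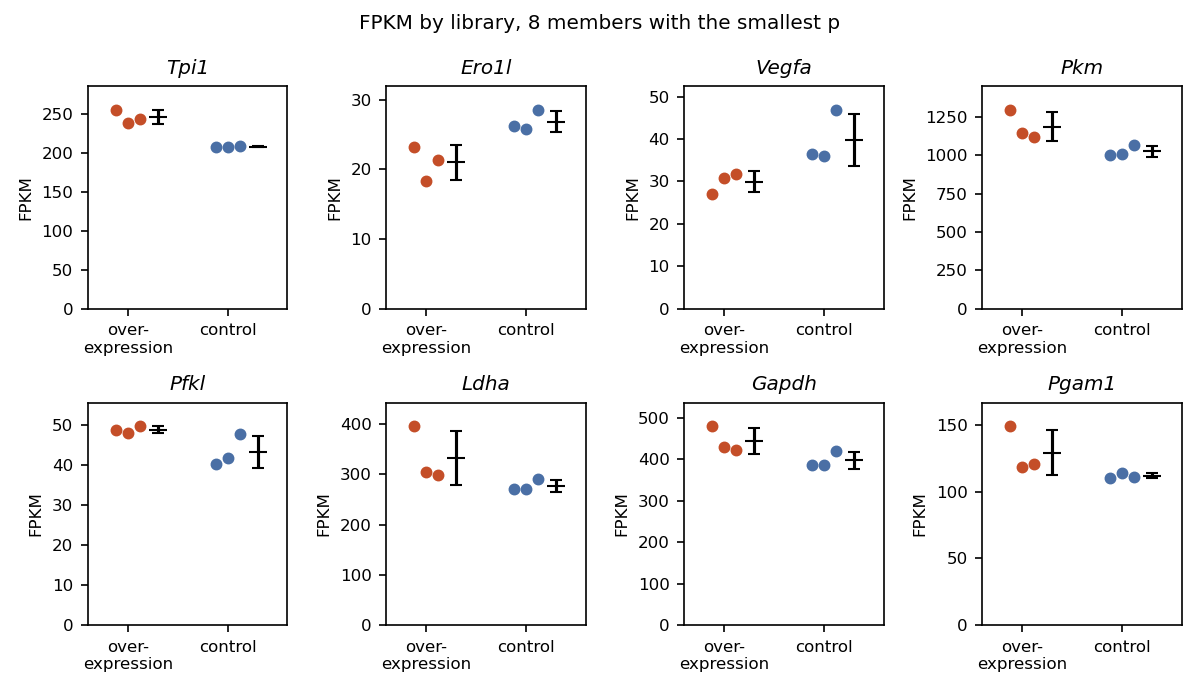
FPKM in each library for the 8 members with the smallest p; points are libraries in replicate order, overexpression left and control right, and bars are mean and SD (n = 3). The groups do not overlap in any of the 8, and in Ldha, Pgam1, Pkm and Gapdh overexpression replicate 1 stands above the rest of its group.

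Overexpression replicate 1 stood apart from the other libraries, with median absolute log2 differences of 0.13 to 0.16 from each of them over all genes compared. Control replicate 3 was about as far from control replicates 1 and 2 (0.14 from each), but nearer to overexpression replicates 2 and 3 (0.11 from each). Overexpression replicate 1, the shallowest of the 6 libraries, had the highest value for 13 of the 16 tested glycolytic enzymes. The lowest library was a control for 15 of them. Over all 12222 tested genes it was highest for 3197 and lowest for 3076, and among the 452 above 100 FPKM it was highest for 179. Reads on the 17 listed glycolytic enzymes made up 1.18%, 0.994% and 1.01% of all reads in overexpression libraries, against 0.938%, 0.938% and 0.984% in control libraries. Median deviations of these enzymes from each gene's mean over the libraries were 0.18, -0.004 and 0.02 (log2) in overexpression, against -0.10, -0.09 and -0.055 in control. Without overexpression replicate 1, 13 of the 16 estimates lay above 0, beside 54.5% of all tested genes, and the median was 0.09 in place of 0.15. Without control replicate 3, also 13 of 16 lay above 0, beside 52.4% of all tested genes. Rescaled to total reads, 13 of 16 lay above 0, with a median of 0.12, while 42.6% of all tested genes then lay above 0 and their median was -0.02.

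**Figure D3:**
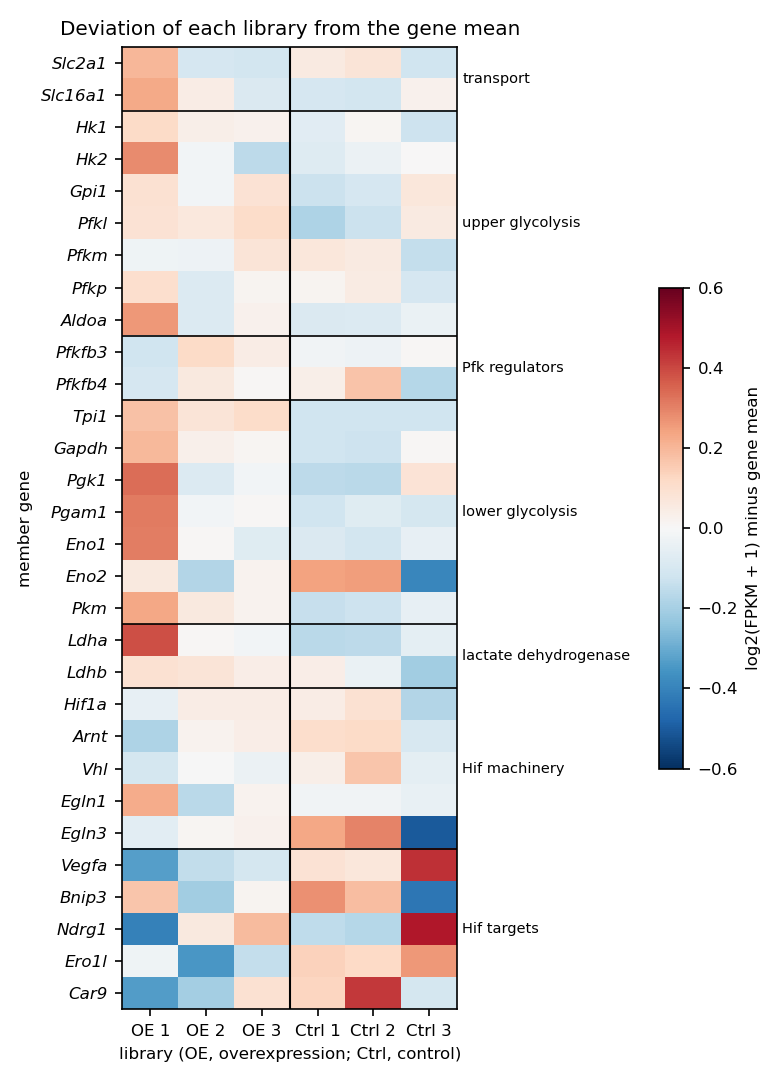
Deviation of log2(FPKM + 1) from each gene's mean over the 6 libraries for the tested members, grouped by role; columns are overexpression replicates 1 to 3, then control replicates 1 to 3. The first column is high across most glycolytic enzymes, and the Hif targets differ in which control library is high.

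Levels of Eno1, Gapdh and Ldhb depend on how reads from near-identical copies were assigned. Eno1 has 7 annotated copies with at least 90% identity over at least 50% of the copy's length, 4 of them listed. The listed copies held 57.1% to 58.7% of the FPKM of Eno1 and its copies together, a share that depends on the gene lengths used. Those were 5379 bases for Eno1 and 1757 for Eno1b, the latter the smallest that gave whole reads. In overexpression replicate 1, Eno1 drew 22894 recovered reads and Eno1b 3578. The copy Gm4735 alone had 221, 181 and 169 FPKM in overexpression libraries, against 171, 164 and 171 FPKM in control libraries. Summed with its copies, Eno1 stood at 595, 486 and 468 FPKM in overexpression libraries, against 451, 439 and 466 FPKM in control libraries, and no overexpression library was below a control. Gapdh has 193 annotated copies, 80 of them listed, with 29.7% to 31.7% of the combined FPKM. Gapdh and its copies came to 682, 621 and 603 FPKM in overexpression libraries, against 564, 556 and 606 FPKM in control libraries. There control replicate 3 stood above overexpression replicate 3, so the combined values overlapped. Ldhb has 1 annotated copy, Gm5514, with 9.07, 11.5 and 11.9 FPKM in overexpression libraries, against 12.6, 12.1 and 6.83 FPKM in control libraries. Control replicates 1 and 2 were the highest libraries for this copy, unlike for Ldhb itself. Ldhb and its copy were not summed. Exons of Tpi1, Gapdh, Aldoa, Gpi1, Hk1, Pfkm, Pfkp, Slc2a1, Hif1a, Bnip3, Ndrg1, Car9 and Ankrd37 overlap a gene on the other strand, and those of Pkm, Pfkm and Hif1a a gene on the same strand. No source states whether counting used strand, so part of the reads of these genes is uncertain.

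**Figure D4:**
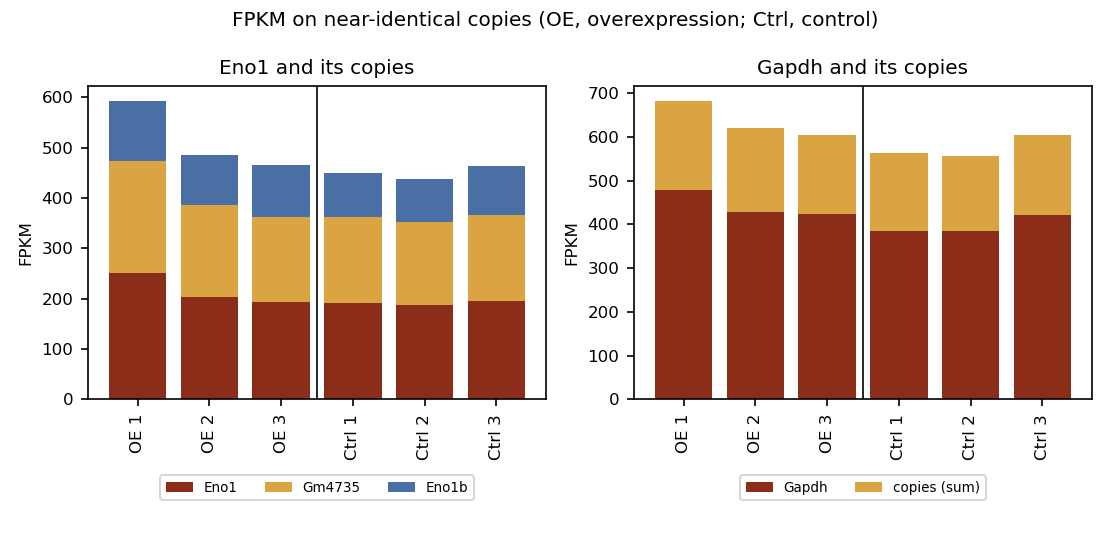
FPKM of Eno1 with its main copies Gm4735 and Eno1b (left) and of Gapdh with the sum of its listed copies (right), stacked per library with overexpression left of the line and control right of it. Copies hold more FPKM than the parent gene for Eno1 and about 30.2% of the combined overexpression FPKM for Gapdh. FPKM shares depend on gene length and are not shares of reads.

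Isoform choice was compared as the FPKM share of one isoform among the members at its step, over 11 shares. Each share overlapped between groups. Pfkl made up 52.8%, 53.4% and 52.3% of phosphofructokinase in overexpression libraries, against 47.1%, 48.2% and 54.8% in control libraries. Control replicate 3 had the highest share of the 6, and the exact two-sided permutation p was 0.4 (adjusted over the 11 shares 0.688). Hk2 was 29.5 ± 2.94% of hexokinase in overexpression and 30.03 ± 1.45% in control (SD, n = 3 each, exact permutation p = 0.8). Ldha was 93.4 ± 0.85% of lactate dehydrogenase in overexpression and 92.9 ± 0.83% in control (exact permutation p = 0.5). Pfkfb3 was 28.03 ± 1.18% of the Pfkfb pair in overexpression and 27.2 ± 3.25% in control (exact permutation p = 0.6). Aldoa, Eno1, Slc2a1, Slc16a1 and Hif1a held nearly the whole of the pair compared at their step, from 96.8% for Eno1 in control replicate 2 upward. For Eno1 that pair was Eno1 and Eno2 only. Eno3, at a mean of 50.1 FPKM, and Eno1b, at a mean of 99.3 FPKM, were left out of the share. With 3 libraries against 3 this exact permutation test cannot go below p = 0.1.

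**Figure D5:**
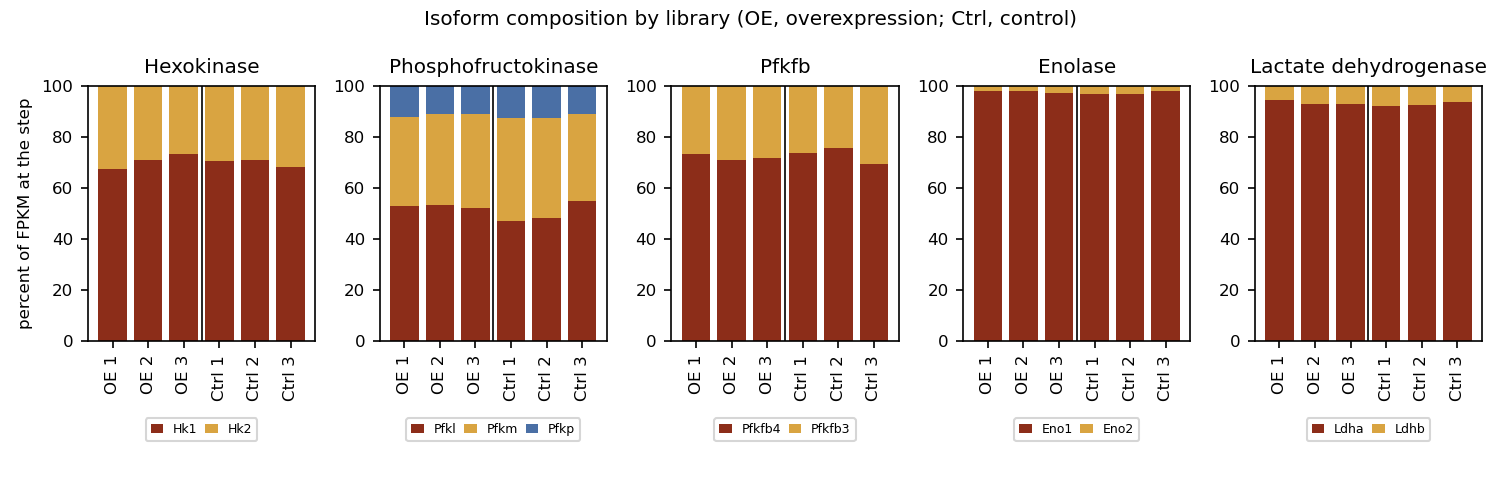
Share of FPKM (%) held by each isoform among the members at 5 steps, stacked per library with overexpression left of the line and control right of it. The enolase panel holds Eno1 and Eno2 only. Pfkl holds 52.3% to 53.4% of phosphofructokinase in overexpression libraries and 47.1% to 54.8% in control libraries, and the other steps shift by less.

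Among the oxygen sensors and Hif subunits, the groups overlapped in all 5 tested members. Hif1a, the oxygen-regulated subunit (ENSMUSG00000021109, chromosome 12, 73901375 to 73947530), had 27.3, 29.2 and 29.1 FPKM in overexpression libraries, against 29.1, 30.2 and 24.9 FPKM in control libraries. The groups overlapped, at 28.5 ± 1.10 FPKM in overexpression and 28.1 ± 2.79 FPKM in control (SD, n = 3 each), with a log2 fold change of 0.03 (SE 0.08, limma adjusted p = 0.951). Since Hif1a is controlled mainly through protein stability, its RNA does not report the protein. Arnt, its partner, lay between 13.2 and 15.6 FPKM in overexpression and between 14.1 and 16.4 FPKM in control. Vhl, the ubiquitin ligase subunit that binds hydroxylated Hif1a, lay between 8.63 and 9.32 FPKM in overexpression and between 8.92 and 10.6 FPKM in control. The main prolyl hydroxylase Egln1 lay between 17.8 and 23.6 FPKM in overexpression and between 19.4 and 19.8 FPKM in control. Egln3, a hydroxylase that is itself a Hif target, had 12.1, 12.8 and 13.0 FPKM in overexpression libraries, against 15.1, 15.8 and 8.65 FPKM in control libraries. The controls thus bracketed the overexpression libraries. Epas1, which encodes Hif2a, drew at most 1 read in any library, and no fold is given.

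Among the members, the Hif targets Vegfa, Ero1l and Car9 had the largest estimates in size. Vegfa, the angiogenic growth factor (ENSMUSG00000023951, chromosome 17, 46016993 to 46032369), had 27.1, 30.9 and 31.8 FPKM in overexpression libraries, against 36.5, 36.01 and 46.9 FPKM in control libraries. Every overexpression library was below the controls, and control replicate 3 stood well above the other controls. Its promoter window, shown above, held neither motif. Means were 29.9 ± 2.52 FPKM in overexpression and 39.8 ± 6.13 FPKM in control (SD, n = 3 each). The log2 fold change was -0.39 (SE 0.12, limma adjusted p = 0.842, 95% interval -0.67 to -0.12), or -0.27 without control replicate 3.

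Ero1l, the endoplasmic reticulum oxidase that drives disulfide formation (ENSMUSG00000021831, chromosome 14, 45283087 to 45318771), had 23.2, 18.4 and 21.3 FPKM in overexpression libraries, against 26.1, 25.8 and 28.5 FPKM in control libraries. The groups did not overlap, with means of 20.97 ± 2.46 FPKM in overexpression and 26.8 ± 1.47 FPKM in control (SD, n = 3 each). The log2 fold change was -0.35 (SE 0.09, limma adjusted p = 0.842, 95% interval -0.56 to -0.13), and -0.42 without overexpression replicate 1. Car9, a cell-surface carbonic anhydrase that is among the most Hif-dependent genes, was low, at 1.13, 1.33 and 1.86 FPKM in overexpression libraries, against 1.93, 2.60 and 1.496 FPKM in control libraries. Control replicate 3 lay inside the overexpression range, and the log2 fold change was -0.30 (SE 0.17, limma adjusted p = 0.843). Without control replicate 2 it was -0.16, and voom on recovered reads gave -0.48. It rested on 44 to 128 reads per library.

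The remaining targets were split by control replicate 3, and they are described here after their values were seen. Bnip3, a mitophagy receptor, had 47.0, 36.01 and 42.2 FPKM in overexpression libraries, against 50.7, 47.6 and 30.7 FPKM in control libraries. Ndrg1, a stress-response gene, had 6.52, 9.39 and 10.4 FPKM in overexpression libraries, against 7.95, 7.84 and 12.9 FPKM in control libraries. Control replicate 3 was thus the lowest library for Bnip3, Egln3 and Eno2 and the highest for Ndrg1, Vegfa and Ero1l, while control replicates 1 and 2 stayed near each other. Without it the log2 fold changes were -0.24 for Bnip3, -0.28 for Egln3 and -0.28 for Eno2, against -0.02, -0.02 and -0.065 with it. The median SD of log2(FPKM + 1) among controls was 0.265 for the 5 Hif targets, beside 0.05 for lower glycolysis and 0.09 over all tested genes. Ankrd37, a strongly Hif-responsive gene, drew 12, 7 and 6 reads in overexpression libraries and 8, 10 and 4 reads in control libraries and was not tested. Summed over the 12 listed Hif machinery and target genes, reads made up 0.0777%, 0.0769% and 0.0829% of all reads in overexpression libraries, against 0.0907%, 0.0905% and 0.087% in control libraries.

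The rest of the pathway was read from 4 further lists, and limma called 0 genes in each. Among 11 tested glycolysis isoforms and transporters outside the set, 7 had an estimate above 0 (median 0.07), and 5 did not overlap between groups. Over all tested genes 53.2% of estimates lay above 0, the median was 0.01 and 11.5% did not overlap. The log2 fold changes of the 3 with the smallest p were 0.25 for Eno1b, which is one of the Eno1 copies above, -0.20 for the bifunctional enzyme Pfkfb2 and 0.21 for the muscle enolase Eno3. Among 20 tested genes of the side branches (among them the pentose phosphate, glycogen and gluconeogenic routes), 16 were above 0 (median 0.075) and 4 did not overlap, with log2 fold changes of 0.19 for the phosphoglucomutase Pgm2, 0.14 for the transketolase Tkt and -0.22 for the glycogen branching enzyme Gbe1. Among 13 tested further genes of Hif control, 6 were above 0 (median -0.045) and 3 did not overlap, with log2 fold changes of 0.14 for the ubiquitin ligase subunit Rbx1, -0.19 for the ubiquitin ligase Siah1a and -0.13 for the coactivator Ep300. Among 28 tested further Hif targets, 16 were above 0 (median 0.02) and 3 did not overlap (10.7%, near the share of all tested genes), with log2 fold changes of 0.12 for the adenylate kinase Ak4, 0.175 for the mitochondrial gene Fam162a and -0.36 for the vasodilator peptide gene Adm. The wider list of 28 targets thus lay close to the median of all tested genes, 0.01, while the 5 members grouped as Hif targets lay at -0.30. Those 5 leave out Hif targets placed under other roles, such as Ldha and Hk2. The difference between the lists was not tested.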

How the data were processed

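RNA of 6 NIH3T3 libraries was DNase-treated, made into libraries with the NEBNext Ultra RNA kit and sequenced as Illumina paired-end reads, per the labels' protocols. Deposited FPKM values per Ensembl gene were used as the authors gave them, with the build mm10 per the submitters' processing notes; the aligner, counter, annotation and strand setting were not given in the sources used here. Groups came from the genotype label and replicate numbers from the title. Symbols came from GENCODE M21 (24816 of 24938 IDs).

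Tests used limma 3.58.1 (R 4.3.3) on log2(FPKM + 1), with moderation set to trend and robust and group as the only term, for 12222 genes above 1 FPKM in at least 3 libraries; 12716 were untested. Fold changes on this scale understate those of low genes. The Benjamini-Hochberg threshold was 0.05 over all tested genes. The fit was checked on simulated data. Members and lists were chosen with earlier results of these data known. Full values are given for the tested members with the 8 smallest p, the 4 highest means and the 4 largest absolute fold changes, and for Hif1a, Slc2a1, Ldha, Hk2 and Vegfa; of each further list the 3 genes with the smallest p are named.

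Whole reads were recovered from the steps between FPKM values, with the annotated exon length for 19832 genes (79.5%) and the smallest length giving whole reads within 0.01 reads plus a relative 1e-08 for 5106, which may understate their reads. They served for depth, read counts of low genes and voom, and cover counting error only. On the deposited scale, library totals of these reads relative to their mean were 1.0075, 1.0207 and 1.0065 in overexpression libraries. In control libraries they were 0.9817, 0.9857 and 0.9978, so the deposited values were not scaled to these totals. Rescaling to total reads took out this difference. Alternatives varied the pseudocount, filter, scaling, library weights, replicate block and libraries included, and averaged control replicates 1 and 2.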

Additional observations from a re-analysis of the deposited data

How the results depend on the processing

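Calls depended on library weights. With array weights (overexpression 0.278, 4.64 and 0.593; control 2.16, 2.57 and 0.236) limma called 2241 genes (18.3%) and 8 members: Pfkl 0.22, Tpi1 0.205, Gapdh 0.15 and Pkm 0.19 higher (11.1% of all tested genes), Eno2 -0.36, Vegfa -0.25, Ero1l -0.45 and Car9 -0.45 lower (7.28%). Weights with control replicates 1 and 2 averaged, chosen after seeing the data, called 0 genes and 0 members. Leaving out 1 library gave 0 to 2 genes (1 without overexpression replicate 1, 2 without control replicate 3) and 0 to 0 members. With the replicate block 0 genes and 0 members were called, and 444 genes had an unadjusted limma p below 0.05, beside 632. Same-numbered libraries correlated at -0.10, 0.08 and 0.003 in their deviations, and differently numbered ones between -0.13 and 0.10. With 3 libraries per group these values cannot settle whether the numbers pair libraries. Genes at an unadjusted limma p below 0.05 split into 350 higher and 282 lower, but 175 and 453 rescaled to total reads and 217 and 384 to upper quartiles.

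Of 30 tested members, 16 kept their sign under every alternative they entered, 17 for all but Car9, which the filter above 5 FPKM removed. Signs turned in the following, and the cause was not tested. With control replicates 1 and 2 averaged: Slc2a1 0.025, Pfkfb4 0.023, Eno2 0.042, Egln3 0.11, Bnip3 0.092 and the Pfkfb3 share -0.01 percentage points. Rescaled to total reads: Pfkm -0.019, Pfkp -0.006 and Hif1a -0.005. Rescaled to upper quartiles: Pfkm -0.011. With array weights: Pfkm -0.070, Pfkp -0.089, Hif1a -0.017, Egln1 -0.099 and Ndrg1 0.18. With weights and averaging: Pfkp -0.024, Pfkfb4 0.076, Pgk1 -0.011, Arnt 0.005, Egln1 -0.082 and Egln3 0.13. Leaving out 1 library: Slc2a1 -0.11 to 0.048, Hk2 -0.051 to 0.17, Pfkm -0.054 to 0.051, Pfkp -0.02 to 0.072, Pfkfb3 -0.021 to 0.096, Pfkfb4 -0.115 to 0.056, Eno2 -0.28 to 0.045, Hif1a -0.054 to 0.08, Egln1 -0.039 to 0.15, Egln3 -0.28 to 0.13, Bnip3 -0.24 to 0.115 and Ndrg1 -0.225 to 0.11, and in percentage points the shares of Hk2 -2.15 to 0.75, Ldha -0.03 to 0.93, Slc16a1 -0.10 to 0.20 and Pfkfb3 -0.55 to 2.65.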
